A study of Mus musculus with 51 samples.

Results

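Transcripts of 34 peroxisomal genes were followed in differentiating C3H/10T1/2-SAM cells: 13 peroxins, which build the organelle, 16 enzymes of its lipid and peroxide chemistry, and 5 transporters or other membrane proteins. The genes were taken from a fixed list of symbols, which was chosen with earlier results of these data known. The list matched 34 of the 53801 genes in the count table, and all 34 were among the 17015 genes kept by the filter on low counts. C3H/10T1/2 is a line of mouse embryo cells with the ability to turn into fat cells, and the SAM derivative carries dCas9-VP64 and MS2-P65-HSF1, a machinery that raises transcription of a gene wherever a guide RNA places it. All groups carried this machinery. Cells of the PY groups were transfected with guide plasmids for Pparg and Ybx1, cells of the P groups with a guide plasmid for Pparg only, and cells of the EV groups with an empty vector plasmid, each time with 250 ng of plasmid DNA in total. Transfection was 48 hours before day 0, and per the labels every group received 5 µM of the PPARG agonist rosiglitazone at day 0. RNA was counted on days 0, 2 and 4 in 6, 5 and 6 PY libraries, 5, 6 and 6 P libraries and 5, 6 and 6 EV libraries, 51 in all, from 6 experiments. EV on day 0 lacks experiment 6, P on day 0 lacks experiment 2 and PY on day 2 lacks experiment 4. Whether the day 0 RNA was taken before the drug is not given in the sources used here, and the labels do not say how many clones the SAM line represents.

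Peroxisomes are single-membrane organelles that shorten very long and branched fatty acids by beta- and alpha-oxidation, begin the synthesis of ether lipids and break down hydrogen peroxide with catalase. PEX3, PEX16 and PEX19 place proteins in the membrane, PEX5 and PEX7 carry matrix enzymes to a docking complex of PEX13 and PEX14, a ubiquitin ligase that includes PEX2 and PEX10 and the ATPase PEX6 with its anchor PEX26 recycle the receptors, and PEX11 proteins take part in division. PPARG is the nuclear receptor that directs fat cell formation, and its relative PPARA is known in rodent liver for raising genes of peroxisomal beta-oxidation.

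Total counts ran from 3381870 to 114566739 per library, and the SD and tests below rest on 5 or 6 libraries a group. The targeted genes went with the labels. Pparg had 178 to 412 CPM in PY libraries and 202 to 370 CPM in P libraries of day 4, against 41.8 to 76.6 CPM in EV libraries (4.18-fold in P versus EV, adjusted p = 2.1e-06), and Ybx1 had 1364 to 2428 CPM in PY, 461 to 664 CPM in P and 415 to 738 CPM in EV libraries. CPM is the count of a gene for each 1000000 counts of effective library size. All adjusted p-values come from edgeR's quasi-likelihood test with Benjamini-Hochberg adjustment over 17015 genes, a gene passed at an adjusted p under 0.05, and intervals of fold changes are at 95%.

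Fat cell transcripts varied widely between libraries of 1 group. The summed level of 15 fat cell identity genes on day 4 was 1704 to 17996 CPM in PY, 3543 to 15362 CPM in P and 94.5 to 603 CPM in EV libraries. All 14 of these genes that the filter kept rose in P versus EV, where 5.18% of all genes did. The filter took all 9 groups together, so a gene could be kept through the groups where it was high. Of the 14, those with the smallest adjusted p were Agpat2 (20.5-fold), Cfd (369-fold) and Lipe (25.8-fold). Over the same libraries the summed level of 10 mesenchymal and fibroblast genes was 10791 to 19707 CPM in PY, 11254 to 24430 CPM in P and 15403 to 28721 CPM in EV. None of these 10 passed in P versus EV, Pdgfrb at 0.803-fold, Col1a2 at 0.751-fold and Fn1 at 0.734-fold having the smallest adjusted p. Summed marker levels of other cell types overlapped between P and EV on day 4, and 0 of their kept genes passed, where 5.37% of all genes did: 3 macrophage genes (Csf1r 0.913-fold, Cd68 0.964-fold, Lyz2 0.9754-fold; 3.08 to 5.65 CPM in P and 2.61 to 5.98 CPM in EV), 3 endothelial genes (Pecam1 1.92-fold, Kdr 1.35-fold, Tek 0.822-fold; 18.6 to 39.5 CPM in P and 23.7 to 49.1 CPM in EV), 5 epithelial genes, among them Cdh1 at 0.6899-fold, Cldn4 at 0.576-fold and Krt18 at 1.33-fold, and 1 muscle gene (Tnnt3 1.04-fold). Counts of 0 in lists this small, the 10 mesenchymal genes included, lie near that share. Hepatocyte genes summed to at most 0.26 CPM in any library, and Alb, Ttr, Serpina1a and Fgb were at 0 in all P libraries of day 4. In such bulk RNA, a smaller number of cells of a type and less RNA per cell cannot be told apart, and the part that the fat cell share has in the differences below was not tested.

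Promoter windows are shown for Cat and Scp2, the members higher in P that hold the 6-letter half-site of nuclear receptors, and for Acaa1b and Ehhadh, the members with the largest fold changes. RefSeq (GRCm38.p6) gave a window of 250 bases before and 50 after a transcript start for 28 of the 34 members. The letters AGGTCA were searched on both strands of each window, together with a looser direct repeat, AGGNCA followed after 1 base by a further AGGNCA on the same strand, so that a repeat can contain the half-site. Each window below is written 5′ to 3′ on the strand of its gene, with AGGTCA in capitals.
Cat, chr2:103485104-103485403, minus strand: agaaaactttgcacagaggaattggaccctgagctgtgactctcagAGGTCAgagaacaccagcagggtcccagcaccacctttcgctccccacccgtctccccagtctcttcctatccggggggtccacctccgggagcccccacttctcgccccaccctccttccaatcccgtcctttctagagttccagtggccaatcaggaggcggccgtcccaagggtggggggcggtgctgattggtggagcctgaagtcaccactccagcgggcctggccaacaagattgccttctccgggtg
Scp2, chr4:108118498-108118797, minus strand: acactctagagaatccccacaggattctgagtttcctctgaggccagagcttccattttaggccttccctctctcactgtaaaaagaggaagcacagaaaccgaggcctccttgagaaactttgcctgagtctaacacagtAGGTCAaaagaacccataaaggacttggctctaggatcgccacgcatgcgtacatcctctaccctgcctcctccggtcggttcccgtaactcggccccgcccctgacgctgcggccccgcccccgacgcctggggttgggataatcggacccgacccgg
Acaa1b, chr9:119157044-119157343, minus strand: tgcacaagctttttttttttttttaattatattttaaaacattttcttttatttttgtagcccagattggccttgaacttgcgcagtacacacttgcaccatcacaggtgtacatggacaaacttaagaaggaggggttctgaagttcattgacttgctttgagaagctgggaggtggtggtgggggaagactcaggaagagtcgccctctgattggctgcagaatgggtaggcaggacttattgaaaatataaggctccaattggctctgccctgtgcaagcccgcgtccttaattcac
Ehhadh, chr16:21787785-21788084, minus strand: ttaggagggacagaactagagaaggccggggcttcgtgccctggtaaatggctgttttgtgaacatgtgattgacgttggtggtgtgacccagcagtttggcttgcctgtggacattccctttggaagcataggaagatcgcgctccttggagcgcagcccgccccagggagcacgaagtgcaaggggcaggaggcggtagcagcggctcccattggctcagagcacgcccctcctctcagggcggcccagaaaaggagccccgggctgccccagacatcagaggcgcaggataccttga
The capitals begin at position -204 from the start of Cat and -109 from the start used for Scp2. The Scp2 window lies inside the annotated span of that gene and not at its upstream end. AGGTCA was found in the windows of 4 of 28 members (14.3%), Cat, Scp2, Pex11g and Phyh, against 18.1% of 27025 genes with a window. The direct repeat was found in 0 of 28 members, against 0.451% of the genes. The windows of Acaa1b and Ehhadh held neither string, which says only that these letters are not in these windows.

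The Pparg guide went with higher transcripts of both peroxins and enzymes on days 2 and 4, and with no passing member on day 0. In P versus EV on day 4, 17 of 34 members rose and 0 fell, where 5.37% of all genes passed, 5.18% as higher and 0.194% as lower. The list was chosen with earlier results of these data known, so its counts here and below only describe it beside such shares. The 17 were 8 of 13 peroxins, 6 of 16 enzymes and 3 of 5 transporters and membrane proteins. The median log2 fold change was 0.65 over the peroxins, 0.43 over the enzymes and 1.20 over the transporters and membrane proteins, against -0.06 over all genes tested. The enzymes were the more divided class, holding both the largest fold changes, 19.8 and 17.3, and 10 members that did not pass, while the peroxins lay between 1.05-fold and 7.31-fold. No test was made between the classes.

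**Figure D1:**
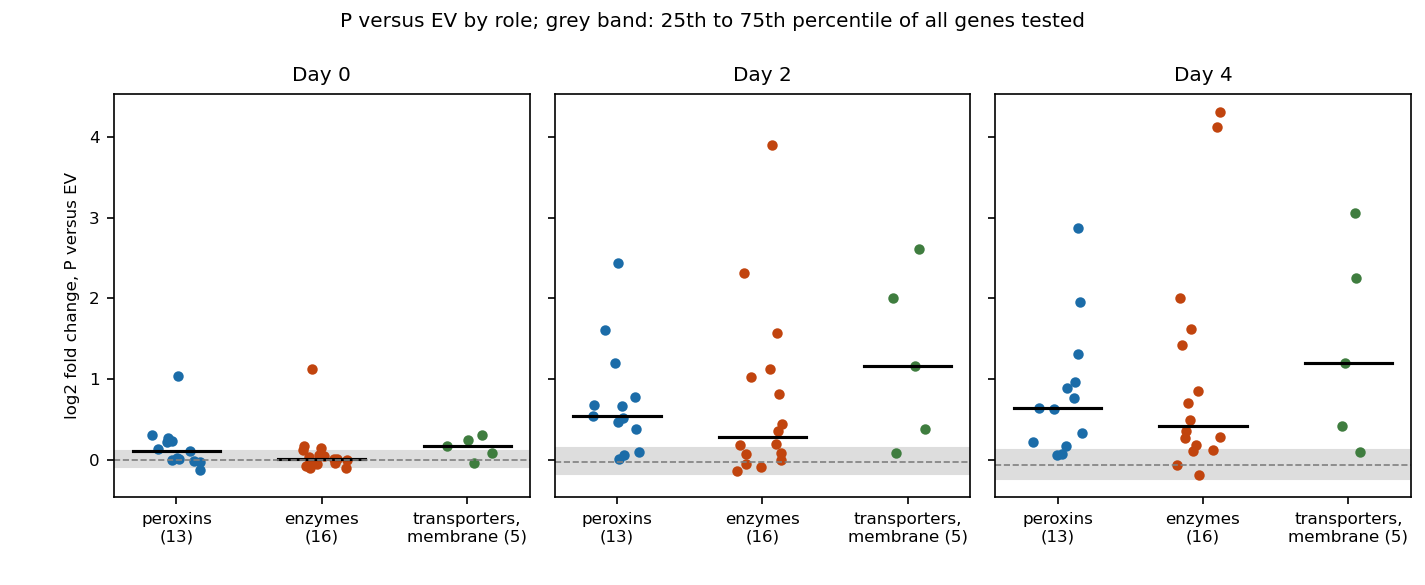
Each dot is the log2 fold change of 1 gene in P versus EV libraries on day 0, 2 or 4, by role, with a bar at the median of the role. The grey band spans the 25th to the 75th percentile of all 17015 genes tested and the dashed line their median; on day 4 the peroxin and enzyme medians of 0.65 and 0.43 lie above the band, and 2 enzymes lie above 4.

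All 3 peroxins of membrane protein insertion rose in P libraries on day 4. Pex16, which recruits PEX3 to the endoplasmic reticulum in mammals, had 38.95, 70.2 and 101 CPM (lowest, median and highest) in P libraries, against 15.5, 18.8 and 20.96 CPM in EV libraries. Every P library lay above every EV library, and the difference was 3.87-fold (95% interval 2.505 to 5.99, adjusted p = 2.12e-05). Pex19, the soluble receptor for membrane proteins, had 109.6, 163 and 239.9 CPM in P and 77.1, 81.4 and 96.98 CPM in EV, without overlap, a difference of 1.96-fold (95% interval 1.52 to 2.54, adjusted p = 0.000243). Pex3, the membrane anchor that PEX19 binds, had 30.1, 47.7 and 62.9 CPM in P and 21.6, 25.2 and 26.5 CPM in EV. Its groups did not overlap either, and it was 1.85-fold higher (1.44 to 2.39, adjusted p = 0.000698). Over all members, every P library was above every EV library for 13 of 34 genes on day 4, where this held for 3% of all genes tested.

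Import receptors and docking subunits were split. Pex13, a docking subunit, had 57.5, 104 and 169 CPM in P and 35.2, 40.7 and 51.3 CPM in EV libraries on day 4, without overlap, and rose 2.496-fold (95% interval 1.803 to 3.46, adjusted p = 9.06e-05). Its docking partner Pex14 had 34.8, 47.8 and 58.9 CPM in P and 24.6, 30.6 and 37.6 CPM in EV, with overlapping groups, and rose 1.55-fold (95% interval 1.19 to 2.01, adjusted p = 0.0305). The ring-finger subunits of the ubiquitin ligase did not pass: Pex2 was at 33.2 ± 4.38 CPM in P and 31.4 ± 3.08 CPM in EV (mean ± SD, n = 6 each), 1.06-fold with an interval of 0.904 to 1.24. Pex10 was at 6.62 ± 1.41 CPM in P and 5.67 ± 1.698 CPM in EV, 1.17-fold (0.912 to 1.49).

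Among the receptors, Pex5, which carries most matrix enzymes, had 69.8, 75.1 and 119.5 CPM in P and 41.01, 51.8 and 57.3 CPM in EV libraries on day 4. All P libraries were above all EV libraries, a difference of 1.71-fold (95% interval 1.34 to 2.19, adjusted p = 0.00219). Pex6, the ATPase that returns PEX5 to the cytosol, had 48.8, 65.4 and 93.01 CPM in P and 38.7, 43.6 and 50.8 CPM in EV, with overlap between the groups, and rose 1.57-fold (95% interval 1.26 to 1.96, adjusted p = 0.00568). Pex7, the receptor of the amino-terminal signal used by thiolases and AGPS, was at 20.7 ± 3.33 CPM in P and 16.4 ± 2.07 CPM in EV (mean ± SD, n = 6 each), 1.26-fold (1.02 to 1.57, adjusted p = 0.322), and was higher in P in 6 of 6 experiments without passing. How many of all genes had 1 direction in every experiment was not counted, here and below. Pex26, the anchor of PEX6, was at 12.6 ± 2.15 CPM in P and 12.1 ± 1.83 CPM in EV, 1.05-fold (0.869 to 1.26). Without experiment 2, Pex5 and Pex6 no longer passed (adjusted p = 0.0641 and 0.0553 at most over all leave-outs), and Pex14 lost its call in 9 of 18 leave-outs of 1 library or 1 experiment.

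The division peroxins went apart. Pex11a, whose protein elongates the peroxisome membrane, had 11.1, 21.9 and 36.5 CPM in P and 2.703, 2.91 and 4.33 CPM in EV libraries on day 4. The groups did not overlap, and at 7.31-fold (95% interval 3.95 to 13.5, adjusted p = 1.11e-05) it had the largest fold change among the peroxins. Pex11g, a related membrane protein, was at 4.44 ± 0.997 CPM in P and 3.92 ± 0.492 CPM in EV (n = 6 each), 1.13-fold (0.829 to 1.55, adjusted p = 0.849). The fission factors that peroxisomes share with mitochondria, Mff, Dnm1l and Fis1, were 1.04-, 1.03- and 0.992-fold, and 0 of 3 passed, where 5.37% of all genes did.

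**Figure D2:**
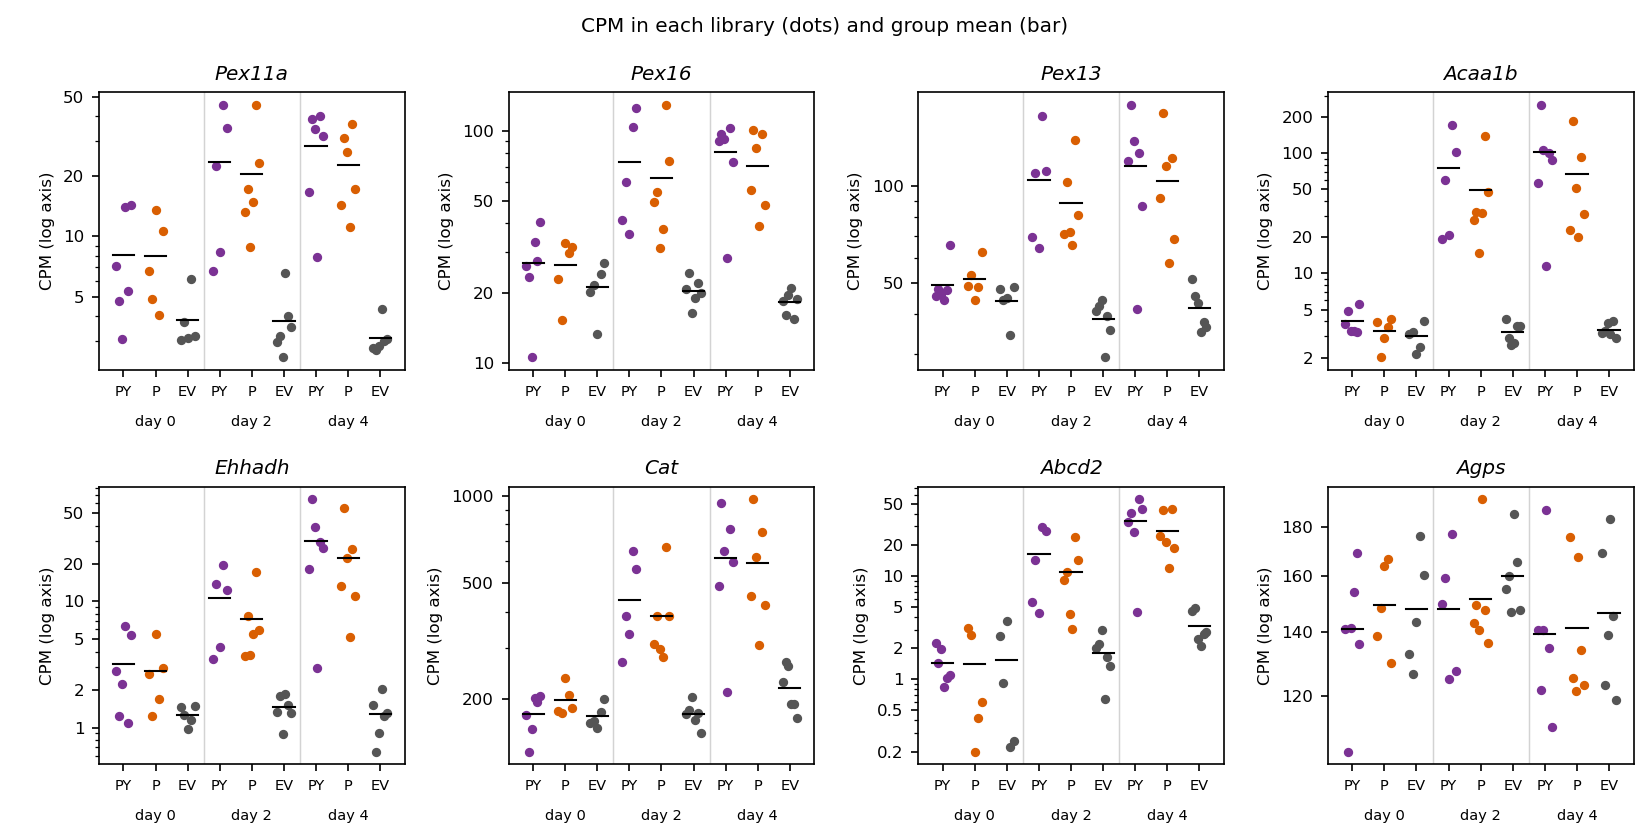
CPM on a log axis for 3 peroxins (Pex11a, Pex16, Pex13), 4 members of the other roles that were higher in P (Acaa1b, Ehhadh, Cat, Abcd2) and Agps, which did not pass; dots are libraries in PY, P and EV on days 0, 2 and 4, and bars are group means. P and EV dots of Acaa1b lie at similar heights on day 0 and are fully apart on days 2 and 4, and Agps spans 121 to 176 CPM in P and 119 to 184 CPM in EV on day 4.

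The beta-oxidation enzymes held the largest and some of the smallest differences, with 4 of 10 passing on day 4. Acaa1b, a rodent ketoacyl-CoA thiolase that splits the shortened acyl chain, had 20, 41.2 and 184 CPM in P and 2.88, 3.26 and 3.99 CPM in EV libraries. The groups were fully apart, and the difference was 19.8-fold (95% interval 8.89 to 43.99, adjusted p = 1.21e-06). Ehhadh, the bifunctional enzyme of the hydration and dehydrogenation steps, had 5.26, 17.6 and 55.5 CPM in P and 0.644, 1.27 and 2.03 CPM in EV, again without overlap, a difference of 17.3-fold (95% interval 7.89 to 38.02, adjusted p = 1.61e-06). Both fold changes leaned on experiment 2, whose P library was the highest for each gene: without that experiment Acaa1b was 12.8-fold and Ehhadh 10.9-fold, and both still passed. The same P library had the highest fat cell sum of the P libraries, 15362 CPM. Scp2 and Gnpat were highest in P day 4 replicate 5, at 576 and 262 CPM, whose fat cell sum was 12758 CPM. In EV on day 4, replicate 2 had the highest fat cell sum, 603 CPM, and the lowest Ehhadh, 0.644 CPM. The part of the fat cell sum in these values was not tested.

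Scp2, whose gene encodes a branched-chain thiolase and a sterol carrier protein, had 181, 259 and 576 CPM in P and 68.2, 78.1 and 89.4 CPM in EV libraries on day 4. Counts per gene do not tell the transcripts of these products apart. Every P library was above every EV library, and the difference was 4.02-fold (95% interval 2.43 to 6.64, adjusted p = 0.000116). Acaa1a, the second thiolase gene, had 32.5, 45.7 and 64.8 CPM in P and 23.98, 28.3 and 33.6 CPM in EV, with overlap, and rose 1.64-fold (95% interval 1.23 to 2.18, adjusted p = 0.0263), a call lost in 10 of 18 leave-outs. Of the 50-base stretches in the annotated transcripts, 39.6% of those of Acaa1b occur in another gene (30.5% in Acaa1a), 17.1% of those of Acaa1a do, and 29.7% of those of Scp2 occur in Scp2-ps2, a pseudogene by its symbol. How reads with several matches were counted is not given in the sources used here, so the division of reads within these pairs is uncertain. The counts of Scp2-ps2 were 3.47 CPM in P and 0.662 CPM in EV, small beside those of Scp2.

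The other 6 beta-oxidation members did not pass on day 4. Acox3, an oxidase of branched acyl-CoA, was at 54.6 ± 10.9 CPM in P libraries and 38.8 ± 4.52 CPM in EV libraries (mean ± SD). With n = 6 each, it was 1.41-fold (95% interval 1.12 to 1.76, adjusted p = 0.0631), higher in 6 of 6 experiments. It passed with the experiment as a block in the model (adjusted p = 0.00429), with a stricter filter (0.0446), with DESeq2 (0.0461) and in 4 of 18 leave-outs. Eci2, an enoyl-CoA isomerase, was at 84.7 ± 11.3 CPM in P and 69.8 ± 7.2 CPM in EV, 1.21-fold (adjusted p = 0.265). Decr2, a dienoyl-CoA reductase, was at 26.3 ± 2.92 CPM in P and 21.6 ± 1.48 CPM in EV, 1.22-fold (adjusted p = 0.505). Both were higher in P than in EV in 6 of 6 experiments without passing. Amacr, a racemase of branched acyl-CoA, was at 18.97 ± 3.71 CPM in P and 16.6 ± 1.47 CPM in EV, 1.14-fold. Crot, which moves shortened chains onto carnitine, was at 72.4 ± 12.7 CPM in P and 66.9 ± 9.04 CPM in EV, 1.08-fold, and Acot8, a thioesterase, was at 8.31 ± 1.68 CPM in P and 7.61 ± 1.21 CPM in EV, 1.09-fold. Amacr and Crot were higher in P in 5 of 6 experiments and Acot8 in 4 of 6, and their adjusted p-values were 0.762 or more.

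Catalase and 1 ether lipid enzyme rose, and neither alpha-oxidation enzyme passed. Cat, the enzyme that degrades hydrogen peroxide, had 306, 536 and 976 CPM in P and 171, 211 and 268 CPM in EV libraries on day 4. The groups did not overlap, and the difference was 2.69-fold (95% interval 1.92 to 3.76, adjusted p = 5.13e-05). Gnpat, the acyltransferase that starts ether lipid synthesis, had 92.9, 127 and 262 CPM in P and 42.3, 46.7 and 60.8 CPM in EV. These groups were also apart, at 3.09-fold (95% interval 2.08 to 4.59, adjusted p = 7.25e-05). Agps, the next enzyme of the same pathway, was at 141 ± 24.1 CPM in P and 146 ± 25.5 CPM in EV (n = 6 each), 0.964-fold with an interval of 0.811 to 1.15. Far1, which supplies the fatty alcohol, was at 101 ± 26.8 CPM in P and 114.6 ± 31.1 CPM in EV, 0.884-fold (0.689 to 1.13), lower in P in 6 of 6 experiments without passing. The alpha-oxidation genes had wider intervals. Phyh, the hydroxylase of phytanoyl-CoA, was at 18.2 ± 5.34 CPM in P and 14.1 ± 3.11 CPM in EV, 1.29-fold (0.877 to 1.89). Hacl1, a lyase of a later step, was at 5.398 ± 2.35 CPM in P and 2.97 ± 0.277 CPM in EV, 1.82-fold (1.06 to 3.098, adjusted p = 0.289). Both were higher in P in 6 of 6 experiments without passing (adjusted p = 0.687 for Phyh).

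Among the transporters and membrane proteins, Abcd2, a transporter of very long acyl-CoA chains, had 11.9, 22.9 and 43.8 CPM in P and 2.09, 2.795 and 4.86 CPM in EV libraries on day 4. The groups did not overlap, and the difference was 8.29-fold (95% interval 3.63 to 18.9, adjusted p = 0.000336). Pxmp2, a channel-forming membrane protein, was scarce, with 0.968, 1.98 and 4.83 CPM in P and 0.413, 0.471 and 0.782 CPM in EV, without overlap, and rose 4.79-fold (95% interval 2.67 to 8.58, adjusted p = 0.000171). Pxmp4, another peroxisomal membrane protein, had 54.9, 112 and 149.5 CPM in P and 28.6, 45.2 and 60.5 CPM in EV, with overlapping groups, and rose 2.29-fold (95% interval 1.51 to 3.49, adjusted p = 0.00754). Abcd3, a transporter of branched acyl-CoA, was at 108 ± 26.1 CPM in P and 80.5 ± 10.2 CPM in EV (mean ± SD, n = 6 each), 1.35-fold (95% interval 1.09 to 1.66, adjusted p = 0.0939). It was higher in P in 6 of 6 experiments and did not pass, but passed with the experiment as a block (adjusted p = 0.0184) and without P day 4 replicate 4 or 6 (adjusted p = 0.0483 and 0.0263). Abcd4, known as a lysosomal cobalamin transporter in spite of its family, was at 36.9 ± 4.64 CPM in P and 34.4 ± 5.203 CPM in EV, 1.07-fold (0.867 to 1.32).

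Strand and overlap bear on several of these values. The library kit marks strand, but the strand setting of the counting is not given in the sources used here, and exons of 16 members overlap a gene on the other strand, among them Pex13 with Pus10, Gnpat with 2810004N23Rik, Pex16 with Large2 and Acaa1b with Dlec1. Pus10 had 49.2 CPM in P and 33.9 CPM in EV on day 4, and 2810004N23Rik had 52.3 CPM in P and 37.9 CPM in EV. Large2 had 0.26 CPM in P and 0.462 CPM in EV, and Dlec1 had 2.89 CPM in P and 2.45 CPM in EV. On the same strand, exons of 3 members overlap another gene, Hacl1 with Gm49387, Gnpat with Gm16163 and Crot with Gm27941. Of the 50-base stretches, 39.2% of those of Pex11g occur in another gene, all of them in Gm44775, 30.1% of those of Hacl1 do, mostly in Gm49387, and 25.2% of those of Pex14 do, all in Gm17029, so the values of these members are uncertain too. Gm49387 was at 0 CPM in all P and EV libraries of day 4. The part of such overlaps in the differences was not tested.

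Per kilobase of exon, Cat was the most abundant member and the order below it differed between P and EV. Length was the union of all annotated exons of a gene, used or not in these cells, so the order depends on the annotation. On day 4, Cat was at 225 ± 94.3 CPM per kilobase in P and 83.7 ± 15.3 in EV (mean ± SD, n = 6 each). In P libraries Scp2 followed at 90.5 ± 44.8, then Pex19 at 42.97 ± 13.2, Gnpat at 41.8 ± 18.5, Pex16 at 39.9 ± 15.01, Acaa1b at 34.2 ± 32.3 and Pxmp4 at 32.9 ± 11.04 CPM per kilobase, and the levels from Pex19 to Pxmp4 did not differ beyond their spread. In EV libraries Scp2 at 22.5 ± 2.09 and Pex19 at 21.9 ± 1.93 lay within each other's spread, and Agps at 15.6 ± 2.71 came next. Acaa1b was at 1.73 ± 0.222 CPM per kilobase in EV, and the lowest EV levels were those of Hacl1 at 0.601 ± 0.0561, Abcd2 at 0.547 ± 0.195, Pxmp2 at 0.458 ± 0.14 and Ehhadh at 0.427 ± 0.161. These last 3 were among the 5 largest fold changes.

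On day 2, 16 of 34 members already passed as higher in P than in EV and 0 as lower, where 2.83% of all genes passed, 2.77% as higher. They were 7 peroxins, 6 enzymes and 3 transporters or membrane proteins, with medians of 0.55, 0.28 and 1.17 on the log2 scale, against -0.02 over all genes. All 16 also passed on day 4, which makes 94.1% of the 17 of day 4; Pex5 was the additional one, at 1.43-fold (adjusted p = 0.117) on day 2. With the experiment as a block, Pex5 (adjusted p = 0.0250), Eci2 (0.0287) and Abcd3 (0.0466) passed on day 2 too, where 5.53% of all genes did. Acaa1b had 14.7, 31.9 and 139.8 CPM in P and 2.57, 3.28 and 4.17 CPM in EV libraries on day 2, 14.8-fold (95% interval 6.78 to 32.5, adjusted p = 8.94e-06). Pex11a had 8.86, 16.03 and 45.3 CPM in P and 2.48, 3.34 and 6.53 CPM in EV, 5.41-fold (95% interval 2.96 to 9.87, adjusted p = 0.000197). Every P library lay above every EV library for both genes, and for 9 members in all, where this held for 2.17% of all genes tested. Of the 34 members, Ehhadh had the largest gap between its log2 fold changes of days 4 and 2, with 3.71, 5.71 and 17.03 CPM in P and 0.885, 1.43 and 1.85 CPM in EV, 4.98-fold (95% interval 2.38 to 10.4, adjusted p = 0.00506).

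The remaining day 2 calls lay between 1.46-fold and 6.103-fold. Abcd2 was 6.103-fold, Pxmp2 4.003-fold, Pex16 3.06-fold, Scp2 2.99-fold, Pex13 2.296-fold, Pxmp4 2.25-fold, Cat 2.18-fold and Gnpat 2.04-fold higher in P. Acaa1a was 1.77-fold, Pex19 1.73-fold, Pex14 1.61-fold, Pex3 1.596-fold and Pex6 1.46-fold higher. The count leaned on a few libraries: it was 7 without P day 2 replicate 5, 5 without experiment 5 and 7 without experiment 6. Without P day 2 replicate 5 the calls of Ehhadh, Pex19, Scp2, Acaa1a, Pxmp4, Pex3, Pex14, Gnpat and Pex6 were lost, with adjusted p-values of 0.055 to 0.325, and Acaa1b was 9.38-fold. Acaa1b, Pex11a, Pex13, Pex16 and Pxmp2 kept their calls under each leave-out of 1 library or experiment. Without experiment 5, Abcd2 (adjusted p = 0.104) and Cat (0.0995) lost theirs as well, and over the 18 leave-outs Pex6 lost its call in 12, Pex3 in 9 and Gnpat in 8. That replicate also had the highest fat cell sum of its group, 11495 CPM, against 2158 to 6353 CPM in the other P day 2 libraries. With only the compared groups in the model, 11 members passed on day 2, and the share of all genes was not counted there.

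On day 0, 0 members passed in P versus EV, where 1 of all 17015 genes did (0.00588%), 1 member was under an unadjusted p of 0.05, and DESeq2 also called 0. The 2 members with the smallest unadjusted p were Pex11a and Ehhadh. Pex11a had 4.04, 4.87, 6.72, 10.6 and 13.5 CPM in the 5 P libraries and 3.05, 3.097, 3.17, 3.71 and 6.09 CPM in the 5 EV libraries, 2.06-fold (1.08 to 3.92, unadjusted p = 0.0287, quasi-likelihood test across all genes). Ehhadh had 1.24, 1.68, 2.65, 2.97 and 5.48 CPM in P and 0.968, 1.15, 1.27, 1.45 and 1.48 CPM in EV, 2.18-fold (0.973 to 4.899). Both were higher in P in 4 of 4 experiments with both libraries, and in both the groups overlapped. The P library of experiment 6 has no EV partner on day 0. It had 10.6 CPM of Pex11a, 2.97 CPM of Ehhadh and the highest fat cell sum of its group, 581 CPM. Acaa1b had 3.33 ± 0.896 CPM in P and 3.01 ± 0.7496 CPM in EV (n = 5 each), 1.09-fold (0.481 to 2.46).

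With the Ybx1 guide added, peroxins, enzymes and transporters also rose against EV on days 2 and 4. Both comparisons use the same EV libraries, so their values are given side by side. In PY versus EV, 0 members passed on day 0 (background 0.047%; 2 members under an unadjusted p of 0.05, and 0 by DESeq2), 18 on day 2 (background 4.74%, of which 4.35% as higher and 0.388% as lower) and 19 on day 4 (background 7.83%, of which 7.03% as higher and 0.799% as lower), all of them higher. The 19 were 8 peroxins, 7 enzymes and 4 transporters or membrane proteins, with medians of 0.76, 0.40 and 1.19. Acaa1b had 11.6, 94.2 and 251 CPM in PY and 2.88, 3.26 and 3.99 CPM in EV libraries on day 4, 30.03-fold (95% interval 13.2 to 68.2, adjusted p = 1.45e-07). Ehhadh had 2.99, 27.9 and 64.6 CPM in PY, and was 23.4-fold (95% interval 10.5 to 52.02, adjusted p = 2.37e-07). Pex11a had 7.91, 33.1 and 39.8 CPM in PY, and was 9.02-fold (95% interval 4.84 to 16.8, adjusted p = 1.65e-06). All PY libraries lay above all EV libraries for these 3 genes.

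Among the peroxins, Pex16 had 28.3, 91.1 and 103 CPM in PY libraries on day 4 and was 4.41-fold in PY and 3.87-fold in P versus EV. Pex13 was 2.76-fold in PY and 2.496-fold in P, Pex19 2.23- and 1.96-fold, Pex3 2.06- and 1.85-fold, and Pex5 1.96- and 1.71-fold. All PY libraries lay above all EV libraries for Pex16. Among the other roles, Cat had 211, 620.1 and 951 CPM in PY, the lowest of them within the EV range, and was 2.79-fold in PY and 2.69-fold in P, Scp2 4.84- and 4.02-fold, Gnpat 3.63- and 3.09-fold, and Abcd2 10.3- and 8.29-fold. Agps was 0.952-fold in PY and 0.964-fold in P, and Far1 0.876- and 0.884-fold, without passing in either. On day 0 the smallest unadjusted p were again those of Pex11a, 2.14-fold in PY (1.14 to 4.01) and higher in 4 of 5 experiments, and Ehhadh, 2.498-fold (1.13 to 5.53) and higher in 3 of 5.

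Members that passed in PY on day 4 and not in P were Abcd3, at 1.48-fold (95% interval 1.2 to 1.82, adjusted p = 0.00919), and Eci2, at 1.305-fold (95% interval 1.101 to 1.55, adjusted p = 0.0388). The difference between PY and P itself did not pass for either (Abcd3 1.098-fold, 0.892 to 1.35; Eci2 1.07-fold, 0.908 to 1.27). With the experiment as a block, Acox3 (adjusted p = 0.0155) and Hacl1 (0.0358) also passed in PY on day 4, where 15.7% of all genes did. Pex14 (0.0282) and Crot (0.0189) did so on day 2, where 10.2% of all genes passed. Eci2 lost its call in 11 of 18 leave-outs, without a filter and in the compared groups only, and Abcd3 in 3 of 18 leave-outs and in the compared groups only. Pex14 lost its call without experiment 2 (adjusted p = 0.0557). On day 2, Pex5 lost its call in 10, Pex6 in 4, Eci2 in 3, Abcd3, Gnpat and Pxmp4 in 2 each and Acaa1a in 1 of 17 leave-outs. Every PY library was above every EV library for 9 members on day 4 (background 2.47%) and for 14 members on day 2 (background 2.59%). The 2 days differ in their libraries, since PY on day 2 has none from experiment 4. PY day 4 replicate 4 was the lowest library of its group for Acaa1b, Ehhadh, Pex11a, Cat and Scp2, and had the lowest fat cell sum of its group, 1704 CPM.

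**Figure D3:**
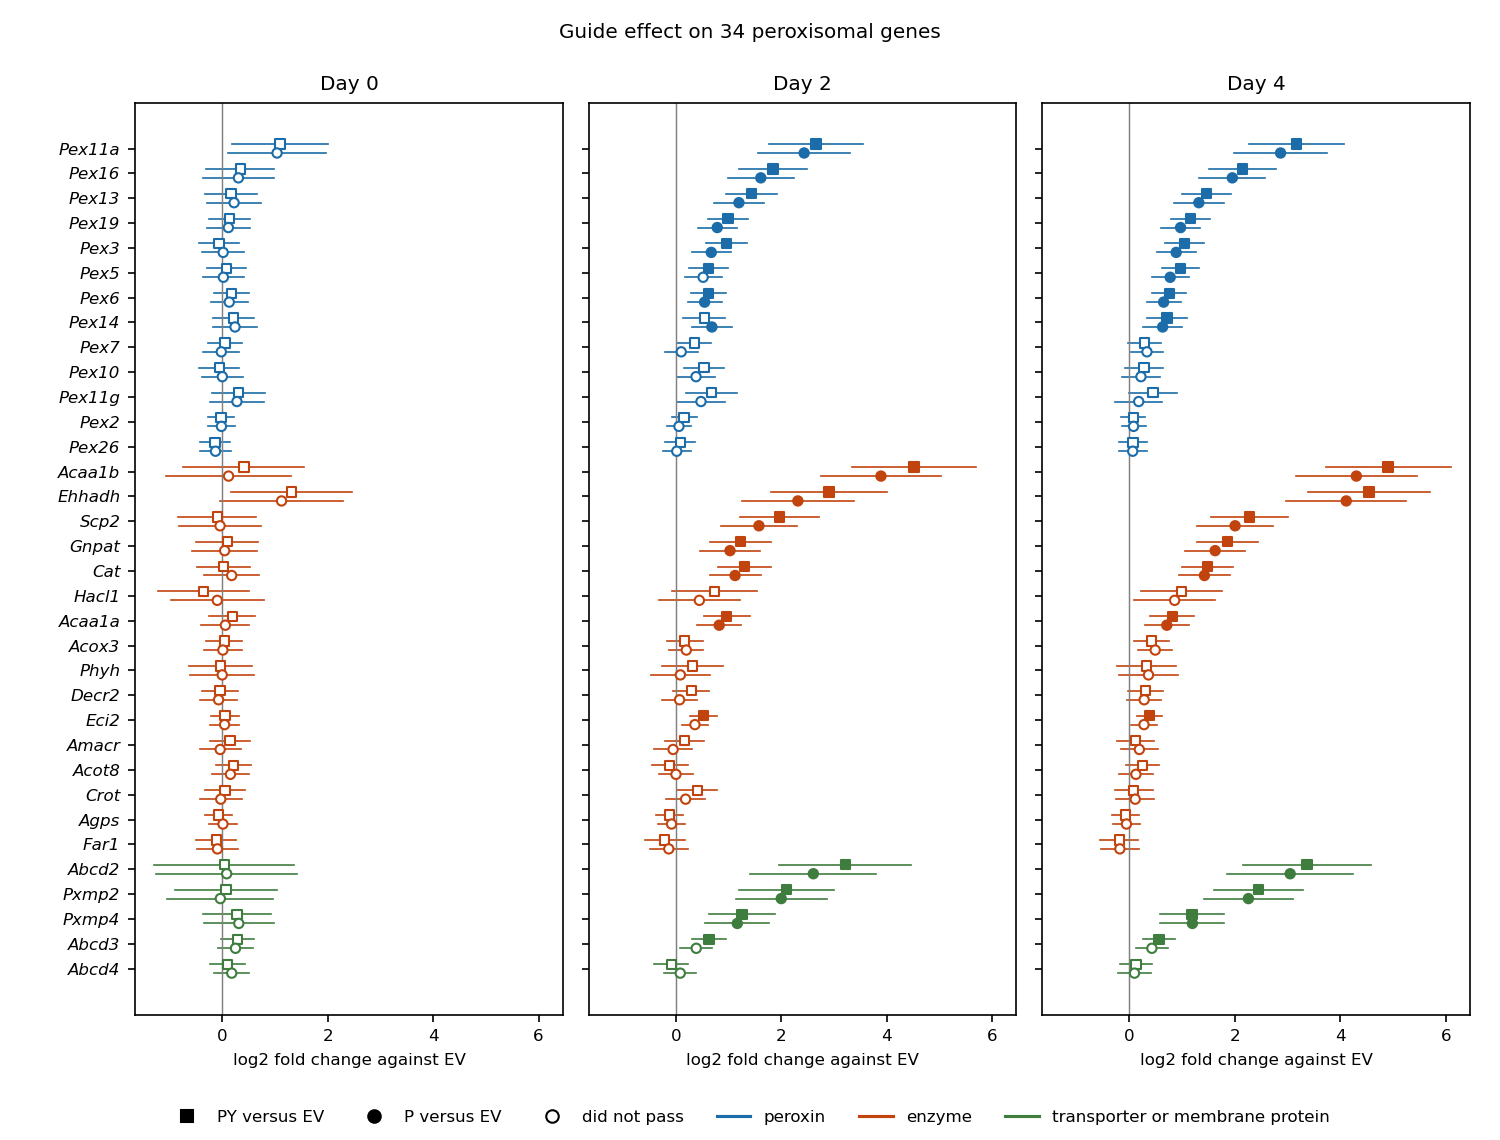
Log2 fold changes with 95% intervals of the 34 members in PY versus EV (squares) and P versus EV (circles) on days 0, 2 and 4, coloured by role and ordered within roles by the P versus EV fold change of day 4; filled symbols passed. Symbols of day 0 are all open, and on day 4 the intervals of the 17 members that passed in P lie right of 0 in both comparisons.

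PY and P were compared directly on each day, with 0 of 34 members passing on days 0, 2 and 4, where 5, 2 and 3 of all 17015 genes passed (0.0294%, 0.0118% and 0.0176%). No member was under an unadjusted p of 0.05 on any day, and DESeq2 also called 0 members. On day 4, Acaa1b had the smallest p: it was at 102 ± 80.7 CPM in PY and 67.02 ± 63.4 CPM in P (n = 6 each), 1.52-fold with an interval of 0.765 to 3.01. Pex11g came next at 1.204-fold (0.882 to 1.64). The smallest p of day 2 were those of Abcd3 at 1.18-fold (0.952 to 1.47) and Pex3 at 1.22-fold (0.937 to 1.59), and those of day 0 were Amacr at 1.14-fold (0.877 to 1.47) and Agps at 0.943-fold (0.787 to 1.13). Intervals of this width leave room for differences of the sizes named, so a lack of calls does not show that PY and P were alike.

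Part of the list also passed over time in cells that received no guide, in both directions together at a share near that of all genes. In EV libraries, 11 of 34 members rose and 1 fell on day 4 versus day 0, where 30% of all genes passed, 15.1% as higher and 14.9% as lower. The 11 were 3 peroxins (Pex7, Pex6 and Pex11g), 5 enzymes (Acox3, Decr2, Eci2, Amacr and Crot) and Abcd3, Abcd4 and Pxmp4; Acot8 fell. Eci2 had 60.8, 70.03 and 79.2 CPM in EV on day 4, against 34.6, 36.2, 41.3, 45.1 and 46.3 CPM in the 5 EV libraries of day 0, 1.72-fold (95% interval 1.43 to 2.06, adjusted p = 2.03e-05). Pxmp4 rose 2.65-fold (adjusted p = 0.00108), Pex11g 2.21-fold (adjusted p = 0.000497), Crot 1.66-fold (adjusted p = 0.00343) and Acox3 1.59-fold (adjusted p = 0.00285), and Acot8 was at 0.727-fold (adjusted p = 0.03102). The count of passing members was 6 without experiment 5 and 6 with no filter on low counts. With the experiment as a block, Phyh (adjusted p = 0.0145), Hacl1 (0.0109) and Abcd2 (0.0439) also passed as higher and Pex14 (0.0236) as lower. That gave 16 of 34 members, near the 44.6% of all genes that passed. Over 17 leave-outs, Decr2 lost its call in 10, Pex7 in 9, Abcd3 and Acot8 in 7 each, Pex6 in 4 and Abcd4 in 2. On day 2, Eci2 at 1.37-fold (adjusted p = 0.0229) and Abcd4 at 1.45-fold (adjusted p = 0.0344) were the 2 members that passed in EV (7.31% of all genes, 2.89% as higher and 4.43% as lower). With the experiment as a block 7 passed, near the 21.8% of all genes that did, the further 5 being Crot, Pxmp4, Acox3, Pex11g and Amacr. Without experiment 1, 2 or 5, or without EV day 0 replicate 2 or 5, 0 passed in EV on day 2, 1 passed without EV day 2 replicate 6, and 4 passed without EV day 2 replicate 4.

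The values of day 4 with a guide and over time in EV share the EV day 4 libraries, so they are set side by side by gene. Acaa1b was 19.8-fold in P versus EV and 1.101-fold in EV over time, Ehhadh 17.3- and 0.985-fold, Pex11a 7.31- and 0.806-fold and Pex16 3.87- and 0.853-fold. Crot was 1.08-fold in P versus EV and 1.66-fold in EV over time, Pex11g 1.13- and 2.21-fold, and Amacr 1.14- and 1.54-fold. Pex6 was 1.57-fold in P versus EV and 1.43-fold in EV over time, and Pxmp4 2.29- and 2.65-fold. Pex2 was 1.06- and 1.03-fold, Agps 0.964- and 0.991-fold, and Far1 0.884- and 1.04-fold.

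With the guides, most of the list rose between day 0 and day 4. In PY, 28 members rose and 1 fell on day 4 versus day 0 (37.5% of all genes, 19.7% as higher and 17.8% as lower), and in P 26 rose and 1 fell (37.2% of all genes, 18.7% as higher and 18.5% as lower). The member that fell was Acot8 in both, at 0.745-fold in PY and 0.712-fold in P. Acaa1b had 20, 41.2 and 184 CPM in P on day 4, against 2.01, 2.89, 3.58, 3.96 and 4.22 CPM in the 5 P libraries of day 0, 20.01-fold (95% interval 8.49 to 47.1, adjusted p = 8.98e-07); without P day 4 replicate 2 it was 13.02-fold. Abcd2 was 23.97-fold in PY and 18.7-fold in P, where it was 29.5-fold without experiment 1, and Scp2 8.19-fold in PY and 6.58-fold in P. Agps, Far1, Pex2, Pex14 and Pex26 did not pass over time in either, and lay between 0.945- and 1.11-fold. Pex14, one of the members higher in P than in EV on day 4, was 0.991-fold over time in P (0.756 to 1.3) and 0.757-fold over time in EV (0.577 to 0.994). With the experiment as a block, Phyh (adjusted p = 6.8e-05) and Pex5 (0.0139) also passed in P, where 51.3% of all genes did. In P, Abcd4 lost its call in 9, Acot8 in 4, Pex10 in 3 and Pex11a in 1 of 17 leave-outs, and in PY, Phyh lost its call in 13, Acot8 in 8 and Pex5 in 1 of 18.

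By day 2, 23 members had risen in PY and 1 had fallen (22.7% of all genes, 11.4% as higher and 11.3% as lower), and 18 had risen in P and 0 had fallen (14% of all genes, 7.01% as higher and 7% as lower). Acaa1b was 18.5-fold in PY and 14.6-fold in P, and Abcd2 11.7-fold in PY and 7.48-fold in P. The member that fell in PY was Acot8, at 0.692-fold. Without P day 2 replicate 5 the count in P was 10 and Acaa1b 9.23-fold, and without experiment 5 the count was 6 and Abcd2 4.91-fold. Without experiment 1, Abcd2 in P was 11.9-fold. Acaa1b in PY was 12-fold without experiment 5. With the experiment as a block, 25 members passed in P (28.5% of all genes) and 27 in PY (35.4% of all genes). In P, Abcd3, Abcd4, Pex3, Pex7, Pex10 and Amacr were also higher and Acot8 lower. In PY, Abcd4, Amacr and Decr2 were also higher. Each of these further calls had an adjusted p of 0.0422 or less.

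**Figure D4:**
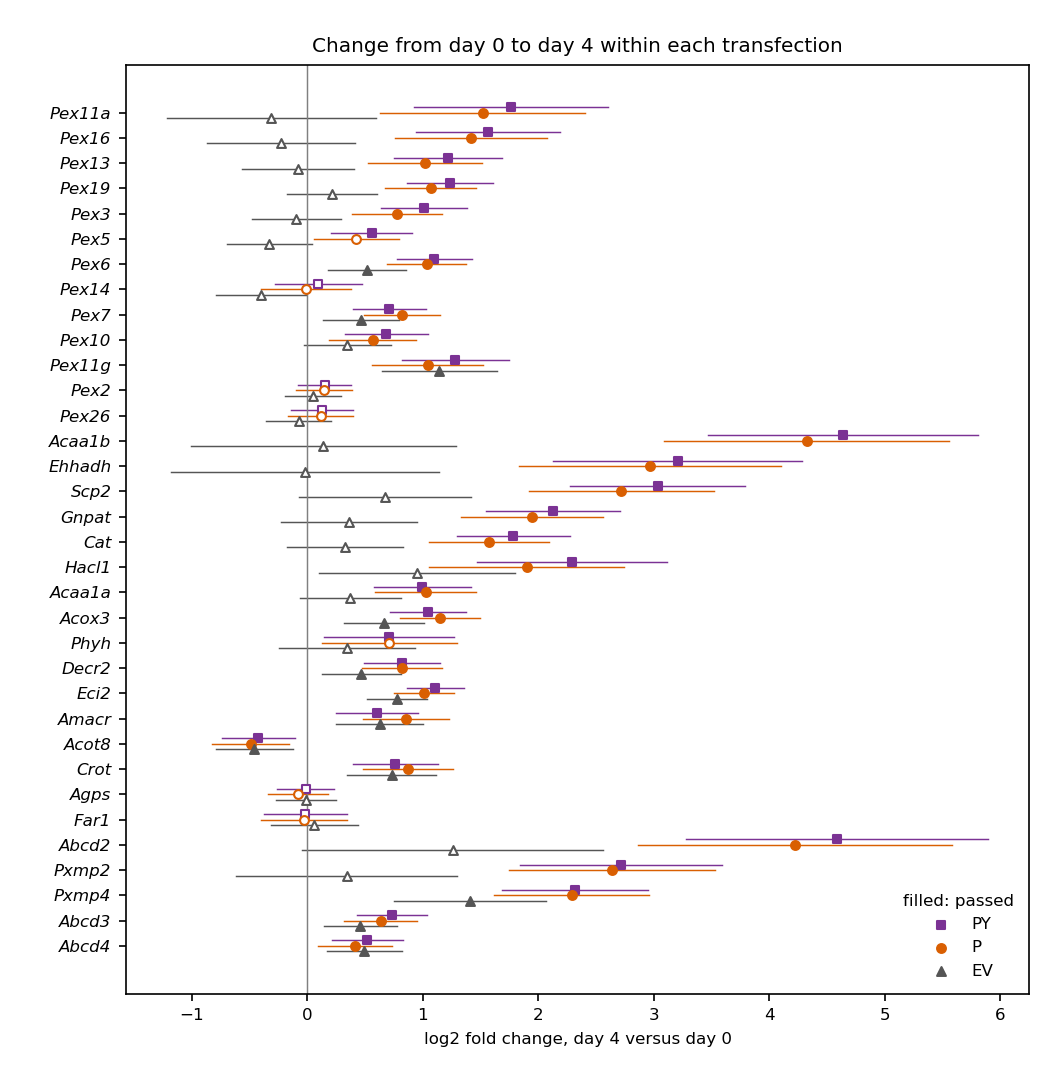
Log2 fold change of day 4 versus day 0 with 95% intervals for each member in PY (squares), P (circles) and EV (triangles); filled symbols passed. For Crot, Amacr, Acot8 and Pex11g the 3 symbols lie close together, and for Acaa1b and Ehhadh the EV symbol lies near 0 with the PY and P symbols between 2.97 and 4.64.

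Whether the difference between P and EV itself changed with time was tested in the same model. From day 0 to day 4, Acaa1b was the 1 member that passed (background 0.306%), with the log2 difference between P and EV higher by 4.18 on day 4 (interval 2.57 to 5.80, adjusted p = 0.009198). From day 0 to day 2 it was also Acaa1b, by 3.77 (2.17 to 5.37, adjusted p = 0.0419, background 0.0588%). The next smallest p belonged to Scp2 on day 4, by 2.05 (adjusted p = 0.0719), and to Pxmp2 on day 2, by 2.04 (adjusted p = 0.635). With the experiment as a block, Pex16, Scp2, Gnpat and Abcd2 also passed on day 4, giving 5 members where 1.22% of all genes passed. The day 2 call of Acaa1b was lost with the block (adjusted p = 0.0523). DESeq2 called 8 members on day 4, the compared groups only gave 7, and leaving out experiment 1, 2, 3 or 5 gave 0, with adjusted p-values of Acaa1b up to 0.107. Shares of all genes were not counted under these settings, so these counts stand without a background. The fold of the change for Acaa1b, 18.2 by day 4, was 11.6 without experiment 2. The day 2 call was lost in 25 of 28 leave-outs, and the fold of that change, 13.6, was 8.24 without experiment 5.

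Between days 2 and 4, no member's difference passed this test, where 0 of all genes passed, 1 member was under an unadjusted p of 0.05, and DESeq2 called 0. Ehhadh had that value: its log2 difference between P and EV was higher by 1.80 on day 4 than on day 2 (0.33 to 3.27, unadjusted p = 0.0177, quasi-likelihood test across all genes). Gnpat followed, by 0.60 (-0.19 to 1.39).

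Other genes of the organelle and of mitochondrial fatty acid oxidation were counted beside the members, in lists also chosen with earlier results of these data known. Of 48 further peroxisomal genes, 35 were kept and 16 rose and 0 fell in P versus EV on day 4, where 5.18% of all genes passed as higher and 0.194% as lower. Their median log2 fold change was 0.59. The 3 with the smallest adjusted p were Ephx2, an epoxide hydrolase, at 50.9-fold (adjusted p = 8.6e-05), Hsd17b4, the D-bifunctional enzyme of beta-oxidation, at 2.24-fold (adjusted p = 0.0001198), and Nudt12, a nucleotide hydrolase, at 2.48-fold (adjusted p = 0.000199). Of 20 mitochondrial fatty acid oxidation genes, 15 rose and 0 fell against the same background, with a median of 1.25. The 3 with the smallest adjusted p were Cpt2, of the carnitine shuttle, at 2.92-fold (adjusted p = 4.16e-05), Acads, the short-chain acyl-CoA dehydrogenase, at 2.55-fold (adjusted p = 4.27e-05), and Decr1, the mitochondrial dienoyl-CoA reductase, at 3.04-fold (adjusted p = 4.28e-05). On day 2, 9 of the 35 and 12 of the 20 rose and 0 fell, where 2.77% of all genes passed as higher and 0.0588% as lower.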

How the data were processed

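RNA was sequenced from 51 libraries, made with a stranded total RNA kit after ribosomal RNA removal per the labels' protocols, and the authors deposited 1 table of raw counts per gene for 53801 genes. The submitters' processing notes name the builds mm10 and GRCm38 and the tools edgeR 3.22.0, STAR 2.5.3a and featureCounts 1.5.2; the annotation release, the strand setting and the treatment of multi-mapping reads are not given in the sources used here. Symbols, exon lengths and overlaps came from GENCODE M21, which matched 53706 of the gene identifiers and left 95 unmatched. No column of the table was without a sample (0).

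From the deposited counts, genes were filtered with filterByExpr, leaving 17015, scaled by TMM and tested with edgeR's quasi-likelihood test (edgeR 4.0.16 and limma 3.58.1 in R 4.3.3), with the means of 9 groups fitted over all 51 libraries. P-values were adjusted by Benjamini-Hochberg over 17015 genes and called under 0.05. Standard errors were derived from the log2 fold change and the F statistic, and 95% intervals from the t distribution; the biological coefficient of variation was 0.325. CPM used effective library sizes. DESeq2 1.42.0 was an alternative, and Python 3.11.15 with pandas 2.3.3, numpy 2.4.6 and matplotlib 3.10.9 made tables and figures. P-values measure the spread between libraries of separate experiments; the labels do not say whether an experiment began from separate cultures. Depths of 3381870 to 114566739 counts make values of scarce genes least precise in the shallowest libraries.

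The labels give each library its experiment, so experiments pair the groups: deviations from group means correlated with a median r of 0.364 over 192 library pairs of 1 experiment and -0.0886 over 963 pairs of different experiments. A fit with the experiment as a block was therefore run as an alternative. Its biological coefficient of variation was 0.202. In P versus EV on day 4 it called 10.1% of all genes, against 5.37% without the block. Unless a block is named, calls come from the fit without it, whose p-values include the spread between experiments. Among 120 library pairs within groups, the closest still differed at 22772 genes, so no column was an exact copy of another in its group. The same RNA sequenced again would not be found in this way. The method was tested on simulated data. Counts were drawn independently, with no effect shared by libraries of 1 experiment. Only a small set of genes was changed, and genes of low mean level were left out of it. The shares called there need not hold for the members. For P versus EV on day 4 it called 32.8% of genes set at 1.5-fold, 74.6% at 2-fold and 93.9% at 3-fold. A member near 1.5-fold that did not pass is thus not shown to be unchanged.

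The members and lists were chosen with earlier results of these data known. All 34 members are accounted for; those passing in P versus EV on day 2 or 4 are named with library values, the others with levels and day 4 values, and where fewer than 3 pass, the 2 with the smallest unadjusted p are named. Of other lists the 3 genes with the smallest adjusted p on day 4 are named. Planned protein comparisons were not made, and promoters came from RefSeq windows only.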

Additional observations from a re-analysis of the deposited data

Results flagged for a closer look

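Of 306 groups of 4 to 10 libraries over the 34 members, 20 held a library standing apart from the others by Dixon's criterion, where chance gives about 1 in 20 groups. Library replicate 5 of P on day 2 accounted for 7 of these, each time as the highest of its 6: Acaa1b at 139.763 CPM with the next library at 47.6 CPM, Cat at 666.494 CPM with 386 CPM next, Scp2 at 451.281 CPM with 191 CPM next, Ehhadh at 17.0333 CPM with 7.66 CPM next, Pex19 at 207.205 CPM with 131 CPM next, Eci2 at 95.9801 CPM with 69.5 CPM next and Hacl1 at 7.03285 CPM with 3.48 CPM next. Its fat cell sum of 11495 CPM was also the highest of the 6, and its part in these values was not tested.

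Replicate 4 of PY on day 4 was the lowest of its group for Acaa1a at 25.7232 CPM and Phyh at 7.94612 CPM, and had that group's lowest fat cell sum of 1704 CPM. Far1 stood apart in libraries of experiment 5 in 3 groups, as the highest value, at 150.25 CPM in PY on day 2, 134.673 CPM in P on day 0 and 138.379 CPM in EV on day 0. Pex11a stood apart in those of experiment 4 in 2 groups, as the highest value, at 4.32727 CPM in EV on day 4 and 6.08681 CPM in EV on day 0. The other single values were Decr2 at 22.2653 CPM (highest) and Pex13 at 65.4449 CPM (highest) in PY on day 0, Agps at 192.376 CPM (highest) in P on day 2, Phyh at 5.64926 CPM (lowest) in EV on day 2, and Pex14 at 32.516 CPM (lowest) and Pex26 at 9.50137 CPM (lowest) in EV on day 0.

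The difference between P and EV changed with time for Acaa1b by the test of the change itself, by 3.76964 on the log2 scale from day 0 to day 2 and by 4.18383 from day 0 to day 4. The call to day 2 was lost with the experiment as a block (adjusted p = 0.0523), with no filter and in 25 of 28 leave-outs, and the call to day 4 in 4 of 28.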

How the results depend on the processing

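The alternatives were DESeq2's size factors, no filter, a stricter filter, the experiment as a replicate block, the compared groups only, DESeq2, and leaving out each library or experiment. Counts of passing members within 1.5 times of those reported were found under each setting other than leave-outs, except as follows. For EV on day 2 versus day 0, 0 passed with no filter and 7 with the replicate block (21.8% of all genes), and for EV on day 4 versus day 0, 6 passed with no filter. For the change of the P versus EV difference from day 0 to day 2, 0 passed with no filter and 0 with the replicate block. From day 0 to day 4, 5 passed with the replicate block (1.22% of all genes), 7 with the compared groups only and 8 with DESeq2. The replicate block changed no call of members other than those named above. Over the leave-outs, counts ranged from 5 to 17 for P versus EV on day 2 and 13 to 19 on day 4, 12 to 19 for PY versus EV on day 2 and 16 to 21 on day 4, 16 to 27 for PY on day 2 and 26 to 29 on day 4 versus day 0, 6 to 22 for P on day 2 and 23 to 29 on day 4 versus day 0, and 0 to 4 for EV on day 2 and 6 to 12 on day 4 versus day 0. They ranged from 0 to 1 and from 0 to 6 for the change of the difference to day 2 and to day 4. Shares of all genes were counted for the reported fit and the block fit only. Counts under the other settings and the leave-outs therefore have no background beside them. Directions of members that did not pass were followed over the leave-outs in P versus EV on days 2 and 4, and turned for 7 members near 0. In P versus EV on day 2, log2 fold changes ranged over the leave-outs from -0.0412 to 0.235 for Phyh, -0.0654 to 0.0704 for Acot8, -0.0125 to 0.123 for Pex2, -0.0417 to 0.0723 for Pex26, -0.194 to 0.0484 for Amacr and -0.0181 to 0.143 for Decr2, and on day 4 from -0.108 to 0.0356 for Agps. The cause of these changes was not tested. Groups of 5 or 6 libraries limit how small a difference could be detected, and values of scarce genes such as Pxmp2 rest on few counts in shallow libraries.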
